A study of Mus musculus with 4 samples.

Results

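Dlk1 and 8 other imprinted genes with roles in growth (Meg3, H19, Peg3, Mest, Plagl1, Grb10, Nnat and Cdkn1c) were examined in testes of male mice, 2 samples labelled Lhcgr KO and 2 labelled control WT. All 4 samples came from testes of mice given busulfan at 44 mg/kg and taken 4 weeks later, so the drug that removes germ cells is shared by both groups. Lhcgr is the luteinizing hormone receptor, through which Leydig cells raise cyclic AMP and make testosterone; its own level was not analysed here. The labels used here give no strain, age or construction of the knockout allele, and they do not say whether samples came from separate animals, so spread between arrays may be technical. The members were a named list read through probe sets with a single gene symbol, and 8 of the 9 had such a probe set, among 19938 genes in all. H19 was not analysed here. The list was selected on knockout and wild-type log2 intensities of these same arrays, including the difference between the wild-type arrays in Dlk1, so the members' values are given as a description without a test.

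Imprinted genes are transcribed mainly from the allele of a single parent, according to methylation marks laid down in the germ line. Many of them tune growth: several paternally expressed genes favour it and several maternally expressed genes restrain it. Dlk1 encodes a membrane protein related to Notch ligands that keeps progenitor cells, among them preadipocytes, from differentiating, and in the testis it is known from fetal Leydig cells. Dlk1 is expressed from the paternal allele, and the noncoding RNA Meg3 from the maternal allele of the same chromosomal domain. The arrays read both alleles together, so no value here tells which allele was transcribed.

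The start regions of 3 members are shown because Dlk1 and Meg3 were both lowest on the same wild-type array and because Meg3 and Peg3 hold the full palindrome to which cyclic AMP response factors are known to bind. Each is the RefSeq window on GRCm38.p6, from 250 bases before a transcript start through the 50 bases that follow, written 5′ to 3′ in the direction of the gene. Capitals mark TGACGTCA, or the shorter TGACG where the whole palindrome is absent, searched on both strands.
Dlk1, chr12:109452573-109452872, plus strand: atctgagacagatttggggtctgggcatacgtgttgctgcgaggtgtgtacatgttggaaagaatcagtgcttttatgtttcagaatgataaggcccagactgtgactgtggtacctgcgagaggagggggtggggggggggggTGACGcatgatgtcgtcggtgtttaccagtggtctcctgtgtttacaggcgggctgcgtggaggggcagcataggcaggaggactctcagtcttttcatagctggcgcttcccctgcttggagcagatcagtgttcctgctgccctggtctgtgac
Meg3, chr12:109540746-109541045, plus strand: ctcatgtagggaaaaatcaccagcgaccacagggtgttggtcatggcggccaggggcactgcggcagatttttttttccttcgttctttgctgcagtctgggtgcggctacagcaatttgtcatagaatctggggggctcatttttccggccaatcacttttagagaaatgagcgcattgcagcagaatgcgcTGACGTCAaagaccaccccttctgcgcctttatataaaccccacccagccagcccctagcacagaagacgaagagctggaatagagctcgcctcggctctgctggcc
Peg3, chr7:6730370-6730669, minus strand: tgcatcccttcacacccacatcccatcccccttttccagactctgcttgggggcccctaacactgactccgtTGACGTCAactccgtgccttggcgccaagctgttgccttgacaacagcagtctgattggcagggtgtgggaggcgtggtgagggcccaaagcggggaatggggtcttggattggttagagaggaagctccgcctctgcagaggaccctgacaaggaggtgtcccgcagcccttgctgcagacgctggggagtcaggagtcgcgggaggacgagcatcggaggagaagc

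The palindrome TGACGTCA began 57 bases before the transcript start of Meg3 and 178 bases before that of Peg3. Of the 32851 windows in the table, 1.79% held it. The Dlk1 window held only TGACG, 106 bases before the start. TGACG on either strand, which also lies inside the palindrome, was in 20.8% of windows. AAGGTCA, a site of the steroidogenic regulator NR5A1, was in 4.72% of windows, and among the members only the other Meg3 window held it. Mest, Plagl1 and Nnat had no match to any of the 3 motifs, a Grb10 window had TGACG, and no window was listed for H19 or Cdkn1c. A match of letters is a description of the window and not a measured binding site.

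Values are log2 of the deposited intensity for 1 probe set per gene, with array medians between 198 and 215 on the linear scale and a lowest value of 16 on every array, so no gene was listed at 0. Wild-type replicate 2 stood apart. For 7 of 17 measured markers of epididymis, efferent ducts and rete testis it exceeded each of the other 3 arrays by over 1 log2 unit. The same held for 0 of 13 adult Leydig and 0 of 12 Sertoli markers, and the share of all genes was not counted. The summed intensity of the epididymal list was 9459 there, against 4617 on the other wild-type array and 4372 and 4753 on the knockout arrays. As a check that testis RNA was on each array, Sox9, 1 of 12 Sertoli cell markers, lay between 11.35 and 11.68 log2 intensity on all 4 arrays. It does not check for other tissue on the same array.

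Dlk1 was the member with the widest spread, and it was higher on both knockout arrays than on either wild-type array. It read 11.76 and 12.02 log2 intensity in the knockout testes, against 10.82 and 6.53 in the wild-type testes. On the linear scale these were 3473 and 4147 intensity units in the knockout and 1805 and 92.6 in the wild type. The knockout arrays differed by 0.26 log2 units, while the wild-type arrays differed 19.5-fold from each other. The log2 fold change, knockout over wild type, was 3.21 ± 1.18 (SE of the limma fit over all genes, n = 2 each), the highest of all 19938 genes. Leaving out wild-type replicate 2 gave 1.07, and leaving out wild-type replicate 1 gave 5.36. The knockout mean was thus 2.10-fold the level of wild-type replicate 1 and 41.0-fold that of replicate 2. On wild-type replicate 2, Dlk1 lay at the 21.6 percentile of genes and below the array median of 198. Ratios to that array therefore rest on a weak signal. Between the wild-type arrays, the Dlk1 difference of -4.29 log2 units, replicate 2 minus replicate 1, was the most negative of the 19938 genes.

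Meg3, the maternally expressed noncoding RNA that follows Dlk1 on the chromosome, was likewise higher on both knockout arrays and lowest on wild-type replicate 2, over a narrower range. Meg3 read 10.24 and 10.00 log2 intensity in the knockout testes, against 9.61 and 7.73 in the wild-type testes. The groups did not overlap, and wild-type replicate 2 was again far below the other arrays. The log2 fold change of Meg3 was 1.45 ± 0.53. Leaving out wild-type replicate 2 gave 0.51, and leaving out the other wild-type array gave 2.39. Its difference between the wild-type arrays, -1.88, was the 15th most negative of all genes. The 6 remaining members differed between the wild-type arrays by between -0.16 for Cdkn1c and 0.47 for Plagl1.

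**Figure D1:**
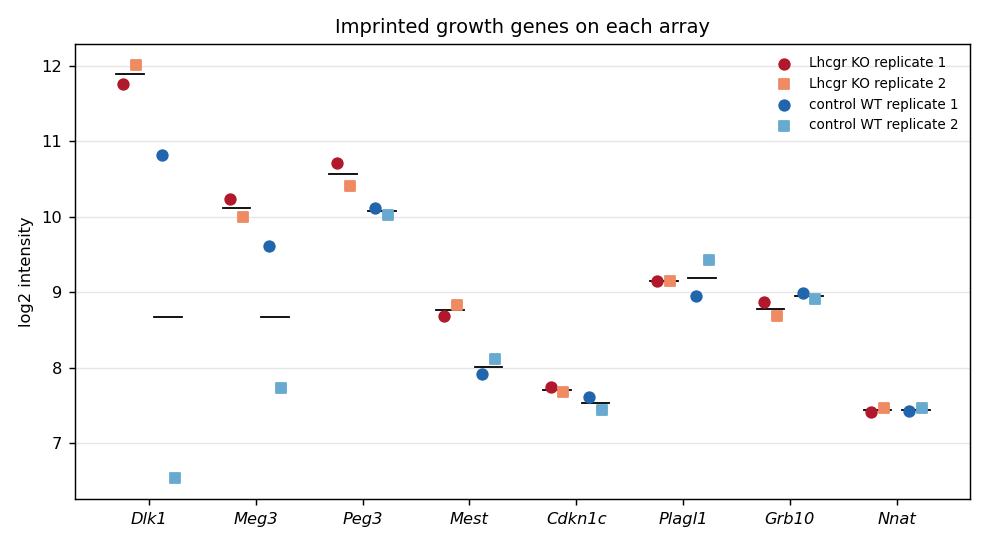
Log2 intensity of the 8 measured imprinted growth genes on each array, with the 2 Lhcgr KO arrays left of the 2 control WT arrays and black lines at group means. Dlk1 and Meg3 were lowest on wild-type replicate 2, at 6.53 and 7.73, while Peg3 and Mest were higher on both knockout arrays than on either wild-type array.

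**Figure D2:**
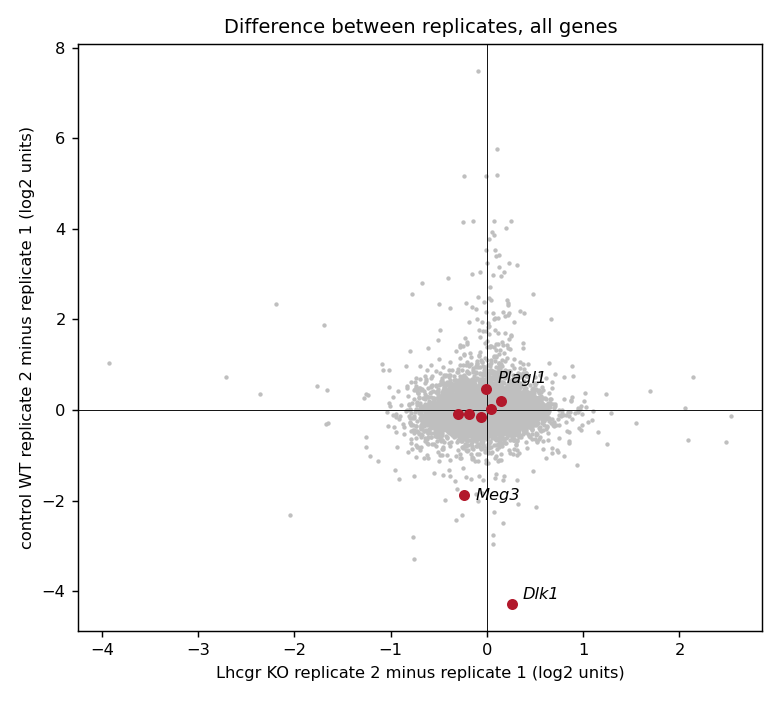
Difference between replicates for all 19938 genes (grey) in log2 units, knockout pair on the horizontal axis and wild-type pair on the vertical axis, with the 8 members in red and the 3 with the largest wild-type differences named. Dlk1 lies lowest of all genes at -4.29 and Meg3 at -1.88, and neither differed by more than 0.26 between the knockout arrays.

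Genes with the profile nearest to Dlk1 were found by distance. Profiles were each centred on their own mean, and likeness was the root mean square distance over the 4 arrays among 17086 named genes. The nearest to Dlk1 was Apela, which encodes a peptide ligand of the apelin receptor, at a distance of 1.20 log2 units. Apela read 8.97 and 8.53 in the knockout and 8.23 and 6.24 in the wild type. Meg3 itself came next at 1.24, followed by the matrix protein gene Dpt at 1.25, the proteoglycan Bcan at 1.25, Rab7b at 1.36 and Necab1 at 1.38. All of these had smaller differences between the wild-type arrays than Dlk1, from -1.07 for Bcan to -2.48 for Dpt. Meg3 had much closer companions, with Apela at 0.0909, Rab7b at 0.28 and the plasma and matrix protein vitronectin, Vtn, at 0.29. The distance is not scaled for range, so for Dlk1 it largely reflects a range of 5.49 log2 units.

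Beyond Meg3, the imprinted domain on chromosome 12 runs through Rtl1, the noncoding RNAs Rian and Mirg with their small nucleolar RNAs and miRNA hairpins, and ends at Dio3. Rtl1, a retrotransposon-derived gene that is paternally expressed, read 7.00 and 7.04 in the knockout and 6.81 and 6.64 in the wild type. The difference was 0.29 ± 0.12 (limma adjusted p = 0.209). Rian read 6.66 and 6.56 in the knockout and 6.71 and 6.24 in the wild type, so its groups overlapped, and its difference was 0.13 with all arrays and -0.10 without wild-type replicate 2. Dio3, the deiodinase that inactivates thyroid hormone, lay between 5.60 and 5.74 on all arrays. These are weak readings: the highest place of Dio3 on any array was the 4.64 percentile of genes, and that of Rian the 24.4 percentile. A fall in either could therefore be understated. Between the wild-type arrays, replicate 2 minus replicate 1 was -0.48 in Rian, the 497th most negative of all genes, -0.16 in Rtl1 and -0.11 in Dio3. A small nucleolar RNA gene of the domain, DQ267102, named after its values were seen, read 8.02 and 8.07 in the knockout and 7.98 and 7.06 in the wild type. Its difference was 0.52 ± 0.28, and 0.06 without wild-type replicate 2.

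Of the miRNA hairpin genes of this domain, 40 had a probe set of their own, and 1 of them passed the test. On 31 of the 40, both knockout arrays were above both wild-type arrays, and on none were both below. The same held for 51.0% of 257 miRNA genes elsewhere and for 36.8% of all genes, and without wild-type replicate 2 for 33 of the 40 against 45.9% of all genes. The median log2 fold change of the 40 was 0.30, against 0.19 for the miRNA genes elsewhere and 0.07 for all genes. After quantile normalization the count was 24 of 40 against 27.6% of all genes. Most of these probe sets were weak, with a median level of 5.87 log2 intensity. They are annotated to hairpin genes and read total RNA, and mature miRNA was not measured.

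Mir382 was the only hairpin gene of the 40 to pass the test over all genes, of which 0.963% were called higher. It read 6.64 and 6.71 in the knockout, against 6.03 and 5.83 in the wild type, so the log2 fold change was 0.74 ± 0.12 (limma adjusted p = 0.0312). The call was lost without wild-type replicate 2 (0.64), knockout replicate 1 (0.77) or knockout replicate 2 (0.71), each with 1 array left in a group. Mir300 had the largest difference, 0.76 ± 0.20 (adjusted p = 0.104), with 6.07 and 6.15 in the knockout and 5.65 and 5.05 in the wild type. Mir495 followed with 0.59 ± 0.12 (adjusted p = 0.0655). These 3 were chosen after their values were seen, as the largest differences among hairpins whose groups did not overlap. Their mature forms in RefSeq on GRCm38.p6 are printed 5′ to 3′ with the seed, bases 2 to 8, in capitals.
mmu-miR-382-5p: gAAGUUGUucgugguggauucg
mmu-miR-382-3p: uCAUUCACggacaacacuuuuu
mmu-miR-300-5p: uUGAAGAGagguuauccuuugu
mmu-miR-300-3p: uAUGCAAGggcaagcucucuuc
mmu-miR-495-5p: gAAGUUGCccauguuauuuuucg
mmu-miR-495-3p: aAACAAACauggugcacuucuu
The 6 sequences have 6 different seeds. Over the 40 hairpin genes, 76 mature sequences carry 74 seeds, and 2 seeds are shared, by miR-379-3p with miR-411-3p and by miR-376b-5p with miR-376c-5p.

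**Figure D3:**
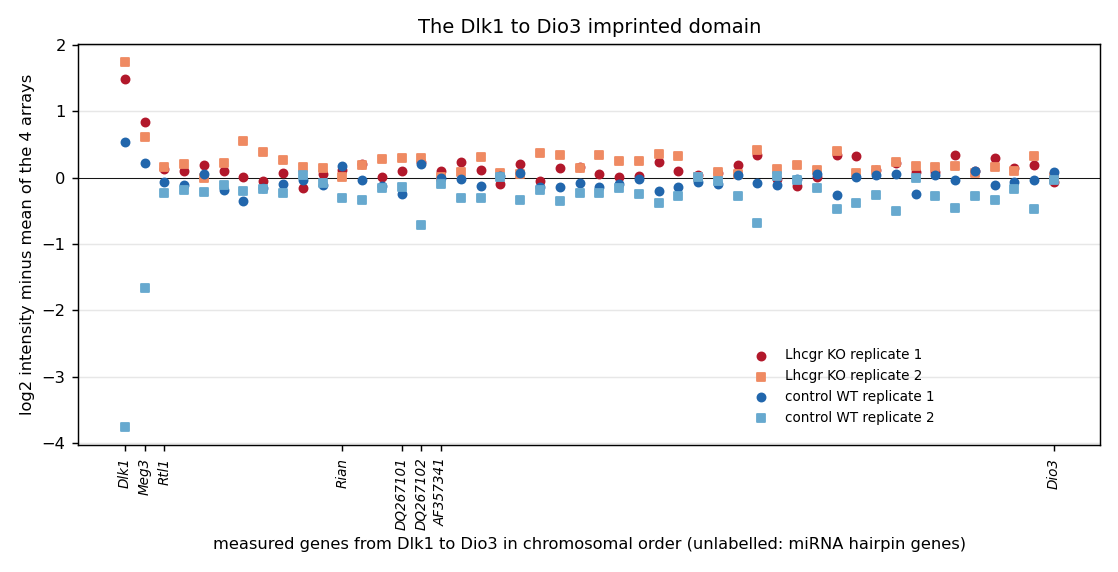
Log2 intensity minus the mean of the 4 arrays for the measured genes from Dlk1 to Dio3 on chromosome 12, in chromosomal order on the horizontal axis, with a symbol per array and miRNA hairpin genes unlabelled. Wild-type replicate 2 minus replicate 1 is -4.29 at Dlk1 and -1.88 at Meg3, and the 2 differ by under 1 log2 unit at every gene plotted after them. Most of those later genes read weakly, so a fall there could be understated.

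Among members that regulate transcription, Peg3 was higher in the knockout. Peg3, a paternally expressed zinc finger protein, read 10.71 and 10.41 log2 intensity in the knockout testes, against 10.11 and 10.03 in the wild-type testes. The groups did not overlap, and the difference was 0.49 ± 0.14. Without wild-type replicate 2 it was 0.45. Plagl1, a paternally expressed zinc finger factor known to regulate a network of imprinted genes, read 9.15 and 9.14 in the knockout and 8.95 and 9.43 in the wild type. The knockout arrays thus fell between the wild-type arrays, and the difference of -0.05 ± 0.17 had no stable sign.

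Mest, a paternally expressed gene for a protein of the hydrolase fold, read 8.69 and 8.83 in the knockout testes, against 7.92 and 8.11 in the wild-type testes. Its difference of 0.75 ± 0.13 was wider than the spread within either group and did not follow the Dlk1 pattern, since wild-type replicate 2 was the higher wild-type array. With 1 array left out, its difference ran from 0.65 to 0.84. Of the 8 members, 1 was past the threshold of the fit over all genes, beside 3.1% of all genes (0.963% higher and 2.14% lower), and as the members were selected on this contrast, that count is no test of them and nothing is read from it.

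Cdkn1c, the maternally expressed inhibitor of cyclin-dependent kinases, read 7.74 and 7.68 in the knockout and 7.61 and 7.44 in the wild type, a difference of 0.18 ± 0.12. Grb10, an adaptor that dampens insulin receptor signalling, read 8.87 and 8.68 in the knockout and 8.99 and 8.91 in the wild type. Grb10 was the only member with both knockout arrays below both wild-type arrays, by -0.17 ± 0.12. Nnat, a small membrane protein of the endoplasmic reticulum, lay between 7.42 and 7.46 on all 4 arrays, the narrowest range of the list. In all, 5 of the 8 members (Dlk1, Meg3, Peg3, Mest and Cdkn1c) had both knockout arrays above both wild-type arrays, beside 36.8% of all genes. The same 5 did so after quantile normalization and after centring each array on its median.

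Other imprinted genes were compared from a list of 52, of which 42 were measured. Of these, 1 rose, none fell and 41 did not pass the test, beside 0.963% of all genes higher and 2.14% lower. The median log2 fold change of the 42 was 0.09, beside 0.07 over all genes. Both knockout arrays were above both wild-type arrays for 17 of the 42 and below for 5, beside 36.8% and 22.4% of all genes. The 17 became 12 after quantile normalization, beside 27.6% of all genes, and 9 after median centring, beside 25.8%. Their median absolute difference between the wild-type arrays was 0.14, against 0.13 for all genes. By listed allele, 1 of 19 genes listed as paternally expressed, none of 21 listed as maternally expressed and neither of 2 listed as varying by isoform or tissue passed. Genes of the first 2 lists may also be imprinted in some tissues only, and their imprinting in testis was not measured.

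The gene that rose was Ins2, an insulin gene that neighbours Igf2 in the same cluster as H19 and Cdkn1c. Ins2 read 9.55 and 9.47 log2 intensity in the knockout testes, against 7.85 and 7.996 in the wild-type testes. The groups lay far apart relative to their spread, with a log2 fold change of 1.59 ± 0.12 (limma adjusted p = 0.00305). Without knockout replicate 1 it was 1.54 and without knockout replicate 2 it was 1.63, and either omission ended the call. Without wild-type replicate 1 it was 1.51 and without wild-type replicate 2 it was 1.66. Igf2, the adjoining fetal growth factor, read 10.32 and 10.43 in the knockout and 10.37 and 9.52 in the wild type. Its knockout values overlapped wild-type replicate 1, and wild-type replicate 2 was the low array (difference 0.43 ± 0.26, adjusted p = 0.339). The Igf2 difference was 0.00 without that array and 0.86 without wild-type replicate 1, each with 1 wild-type array left.

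Zim1, the maternally expressed zinc finger gene beside Peg3, read 8.27 and 8.57 in the knockout testes, against 7.58 and 6.81 in the wild-type testes. Its difference was 1.23 ± 0.25 (adjusted p = 0.0590) and did not pass the test. Without wild-type replicate 2, with 1 wild-type array left, the difference was 0.84. Wild-type replicate 2 was the lowest array for 14 of the 42 genes (33.3%), Igf2 and Zim1 among them, beside 38.2% of all genes. It was the highest for 5, among them Slc38a4, an amino acid transporter gene, and Kcnq1, a potassium channel gene, which were 1.03 and 0.93 log2 units above wild-type replicate 1. Usp29, the paternally expressed neighbour of Peg3, had a difference of 0.16 ± 0.13. Htr2a, a serotonin receptor gene, read 7.11 and 7.24 in the knockout and 6.90 and 6.69 in the wild type (0.38 ± 0.13, adjusted p = 0.161). Sfmbt2, a Polycomb protein gene, had the most negative difference, -0.78 ± 0.17 (adjusted p = 0.0678). Blcap, which surrounds Nnat, differed by 0.07 ± 0.11 and Ddc, beside Grb10, by 0.05 ± 0.13.

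**Figure D4:**
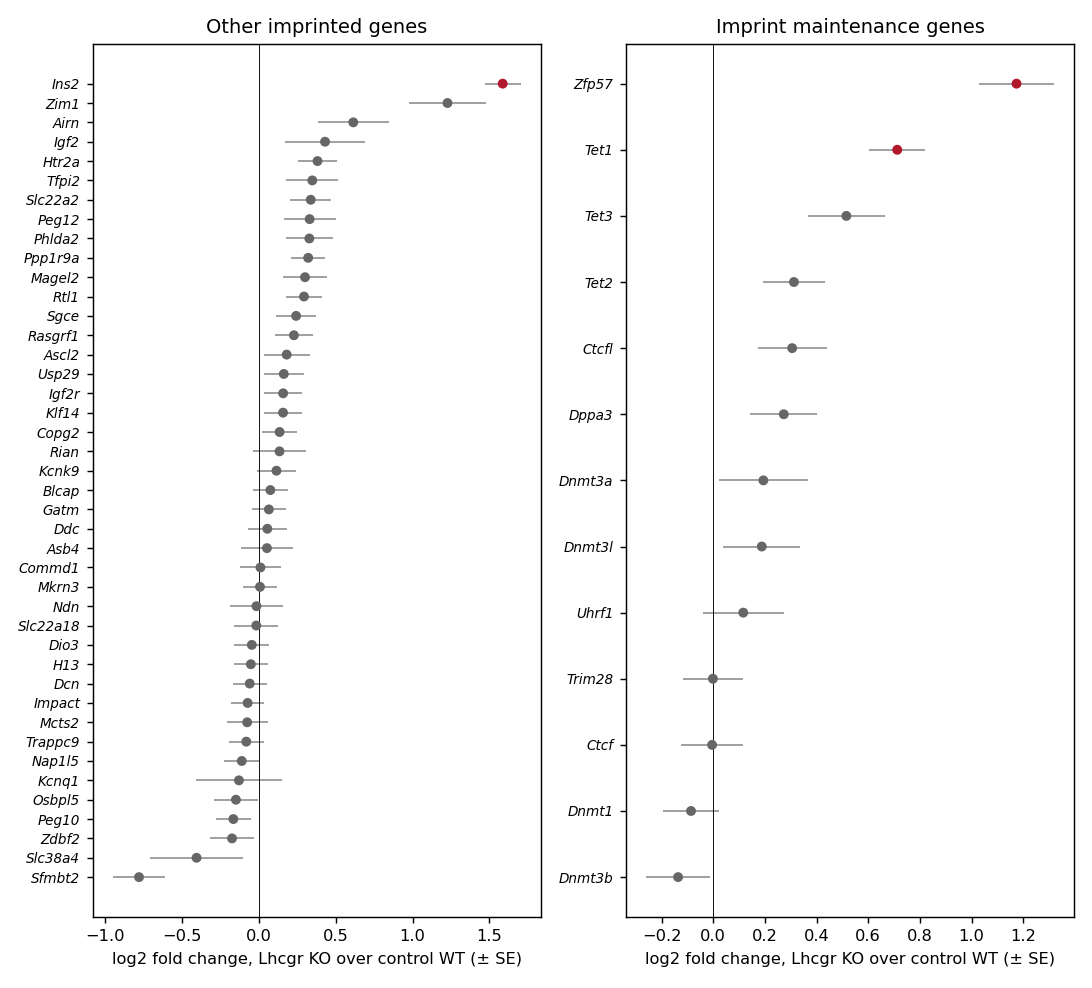
Log2 fold change, Lhcgr KO over control WT, with the standard error of the fit (n = 2 arrays each) for 42 other imprinted genes on the left and 13 imprint maintenance genes on the right, with genes past the test in red. Ins2 stands at 1.59, Zfp57 at 1.17 and Tet1 at 0.71, and Sfmbt2 is lowest at -0.78.

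Of 13 genes that write, protect or remove DNA methylation at imprints, 2 rose, none fell and 11 did not pass. Over all genes, 0.963% rose and 2.14% fell. Zfp57, the zinc finger protein that protects imprints from erasure, read 7.99 and 7.71 in the knockout, against 6.79 and 6.57 in the wild type. The log2 fold change was 1.17 ± 0.15 (limma adjusted p = 0.0126). Tet1, a dioxygenase that oxidises 5-methylcytosine, read 9.64 and 9.58 in the knockout and 8.90 and 8.90 in the wild type. Its difference was 0.71 ± 0.11 (limma adjusted p = 0.0245), and its other probe sets differed by 0.66 and 0.65. Without wild-type replicate 1 the differences were 1.28 for Zfp57 and 0.72 for Tet1, and without wild-type replicate 2 they were 1.06 and 0.71. Both genes lost the call without knockout replicate 1 (1.03 for Zfp57 and 0.68 for Tet1) or knockout replicate 2 (1.31 and 0.74). The maintenance methyltransferase Dnmt1 differed by -0.09 ± 0.11 and Trim28, the corepressor that Zfp57 recruits, by less than 0.01. Tet3 differed by 0.52 ± 0.15 (adjusted p = 0.130), and by 0.71 without wild-type replicate 2, with 1 wild-type array left. The list median was 0.19, beside 0.07 for all genes. Both knockout arrays were above both wild-type arrays for 6 of the 13 and below for 1, beside 36.8% and 22.4% of all genes.

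Relatives of the members that are not imprinted did not pass the test in any of 6 measured genes, beside 3.1% of all genes. The lowest p-values were those of Grb14, a relative of Grb10 (10.42 and 10.35 in the knockout, 9.99 and 9.73 in the wild type, adjusted p = 0.0973), and Dlk2, the relative of Dlk1, which differed by 0.34 ± 0.15 (adjusted p = 0.241). Cdkn1b, a relative of Cdkn1c named after its values were seen, differed by 0.07 ± 0.11 in the probe set used. Its weaker probe set read 7.09 and 7.29 in the knockout and 8.25 and 7.89 in the wild type, a difference of -0.88 that was not tested. Of 12 binding partners and readouts of the members, including Notch receptors, insulin-family receptors and cell cycle genes, none passed either, beside the same 3.1%. Those with the lowest p-values were Ccne1, cyclin E1, at -0.36 ± 0.12 (adjusted p = 0.157) and the replication clamp Pcna at -0.33 ± 0.12 (adjusted p = 0.191). Ccnd1, cyclin D1, read 8.41 and 8.79 in the knockout and 8.57 and 10.70 in the wild type, so it was high on the wild-type array on which Dlk1 was low (-1.03 ± 0.60, adjusted p = 0.329). Its difference was 0.04 without wild-type replicate 2 and -2.10 without wild-type replicate 1, each with 1 wild-type array left. Notch1 and Notch2 differed by 0.15 ± 0.19 and 0.17 ± 0.17.

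In whole testis, fewer cells of a type and less RNA per cell cannot be told apart, so markers of the other cell types are given beside Dlk1. The summed intensity of adult Leydig cell markers was 5693 and 4699 in the knockout, against 27772 and 15477 in the wild type, where replicate 2 was the lower array as for Dlk1. Of 13 measured, 7 fell and none rose, beside 2.14% of all genes lower and 0.963% higher. The knockout arrays were therefore highest in Dlk1 while lowest in these markers. Markers of Leydig progenitors and fetal Leydig cells summed to 14904 and 13111 in the knockout and 14546 and 11806 in the wild type. In this list 2 of 13 rose and none fell, beside 0.963% and 2.14% of all genes, and the median difference was 0.20. Those that rose were the matrix glycoprotein gene Thbs2 (1.57 ± 0.18, limma adjusted p = 0.0104) and Ptch1, the hedgehog receptor (0.74 ± 0.12, adjusted p = 0.0284). Both knockout arrays were above both wild-type arrays for 6 of the 13, beside 36.8% of all genes. They were below for 2, Vcam1 (-1.04 ± 0.25) and Lifr (-0.32 ± 0.16), beside 22.4% of all genes. Of 12 Sertoli markers, Amh rose (0.80 ± 0.14, adjusted p = 0.0398) and Trf fell (-2.29 ± 0.24, adjusted p = 0.00746). Amh lost its call without wild-type replicate 1 (0.68). The calls of these marker genes without a knockout array are not given here.

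Macrophage markers summed to 4182 and 4432 in the knockout and 7629 and 9334 in the wild type. Both knockout arrays were below both wild-type arrays for all 10 of them, beside 22.4% of all genes. Of the 10, 5 passed the test as lower, beside 2.14% of all genes. Adipocyte markers, whose precursors express Dlk1, summed to 795 and 943 in the knockout and 696 and 677 in the wild type. None of 6 was past the test, beside 3.1% of all genes. Markers of peritubular myoid cells, endothelium, spermatogonia, and spermatocytes and spermatids had median differences of -0.03, 0.01, 0.27 and 0.09. Of these lists only the endothelial list had a member past the test, 1 of 8 as higher, beside 0.963% of all genes. Between the wild-type arrays, the median of the adult Leydig list was -0.73, replicate 2 minus replicate 1. The epididymal list had a median of 0.10, with 7 of its 17 genes raised on wild-type replicate 2, Adam7 by 5.17 and Rnase12 by 4.17. In that list 1 gene of 17 was past the test as lower, beside 2.14% of all genes, the epithelial adhesion gene Epcam (-2.06 ± 0.40, limma adjusted p = 0.0484). Epcam read 6.37 on both knockout arrays, against 7.73 and 9.12 in the wild type, and differed by -1.36 without wild-type replicate 2. Wild-type replicate 2 was the array on which Dlk1 and Meg3 were lowest, and the part of these markers in the members' values was not tested.

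**Figure D5:**
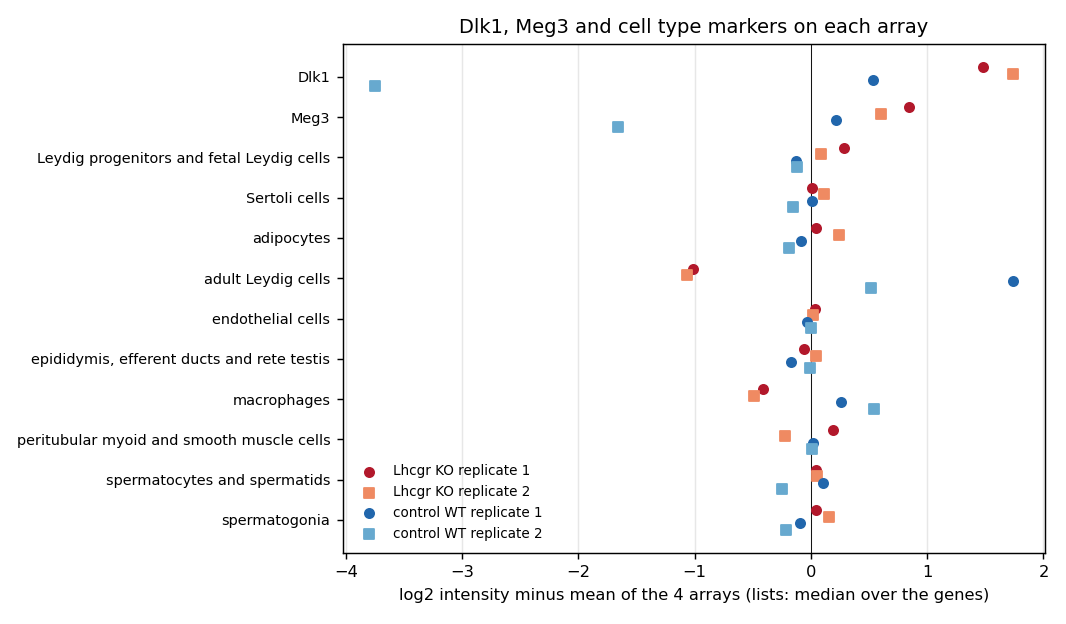
Log2 intensity minus the mean of the 4 arrays for Dlk1, Meg3 and, as medians over their genes, 10 cell type marker lists, with a symbol per array. Dlk1 and Meg3 are highest on the knockout arrays, where the adult Leydig list is lowest, at -1.01 and -1.07 against 1.74 and 0.51 on the wild-type arrays.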

How the data were processed

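The authors deposited linear intensity values for 28856 probe sets on each of 4 arrays. Per the labels' protocols, purified total RNA became biotin-labelled sense cDNA for whole-transcript GeneChips. The submitters' processing notes name mm9, and the normalization is not given in the sources used here. Of the probe sets, 21789 have 1 symbol in the platform annotation, 1621 several and 5446 none listed. Through the Entrez number 21698 of them matched RefSeq on GRCm38.p6, which served for names, gene order and printed sequences. The probe set with the highest mean stood for each of 19938 genes. Intensities were taken to log2 and fitted with limma 3.58.1 in R 4.3.3 (lmFit and eBayes, no covariates, Benjamini-Hochberg over all genes, threshold 0.05). Each log2 fold change (knockout over wild type) carries its fitted standard error. The number of arrays limits the precision. On simulated arrays of this comparison, with 19938 independent genes, the fit recovered 79% of genes shifted by 1 log2 unit and 97% of genes shifted by 2. Recovery of genes that read far apart on the wild-type arrays was not tested, and false calls are not given here. Adam7, with standard deviations of 0.17 in the knockout and 3.65 in the wild type, differed by -2.66 ± 1.42. It did not pass (limma adjusted p = 0.299).

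The members and all lists were chosen with earlier results of these data known. Named genes were every member, and, in the lists of other imprinted genes by allele, relatives, partners and imprint maintenance, every gene past the threshold or the 2 lowest p-values of a list with none, and the 6 profiles nearest to Dlk1 or 3 nearest to another member with a range of at least 1 log2 unit. Others are said to be chosen after their values were seen or are neighbours, partners or markers of the members. Genotype labels were taken as given, without a check on Lhcgr. The alternatives were quantile normalization, median centring, leaving out the weakest 25% or 50% of genes, averaging probe sets, adding a further 32 units before log2, a trended or robust eBayes prior, a threshold of 0.1, a block for replicate number, and each array left out. Counts of groups without overlap, Mir382 and values of other named genes or lists without a wild-type array were put through alternatives chosen after seeing the data.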

Additional observations from a re-analysis of the deposited data

How the results depend on the processing

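The counts over all genes, 192 higher and 426 lower, depended most on which arrays were used: leaving out 1 array gave 2 to 313 higher and 16 to 726 lower, the fewest without a knockout array. At an adjusted p under 0.1 they were 482 and 762. Over the other imprinted genes, 1 was called higher with all arrays, and 2 were after median centring, with 32 further units added, with eBayes trend and at 0.1. None was called lower with all arrays, and 1 was with a robust prior and at 0.1 (Sfmbt2). Leaving out 1 array gave 0 to 3 higher and 0 to 1 lower, with Igf2 and Zim1 higher and Slc38a4 lower without wild-type replicate 1. The Dlk1 log2 fold change of 3.21 ran from 1.07 to 5.36 with 1 array left out, and from 3.0 to 3.21 under the other settings. Where an arm was left with 1 array, it was assumed to vary like the other group. With the replicate number as a block, 173 genes were higher and 399 lower, and the calls of Ins2, Zfp57, Tet1 and Mir382 stood. Deviations of same-numbered arrays correlated at 0.0205 over genes, so the numbers were not taken as pairs. The weak Mir382 probe set was not fitted with the lowest 25% or 50% of genes left out, nor Zfp57 with the lowest 50% left out. The cause of these differences was not tested.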
